A study of Mus musculus with 4 samples.

Results

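Border-associated macrophages are the resident macrophages of the meninges, the choroid plexus and the perivascular spaces of the brain, and they are told apart from microglia, the macrophages of the brain tissue itself, by a set of surface receptors, secreted proteins and endocytic genes. The 10 marker genes described here are Pf4, F13a1, Mrc1, Cd209a, Clec10a, Cd163, Stab1, Lyve1, Dab2 and Cbr2, out of 17647 genes named on the arrays. They were matched by symbol to probe sets with exactly 1 gene symbol, and each of the 10 had 1 such probe set. The arrays measured RNA of microglia prepared from the whole brain of male mice of the C57BL/6J strain. The groups were OVA (allergy) mice at postnatal day 70 (P70), their PBS (control) mice at P70, OVA mice at P30 and PBS mice at P30, all collected 1 day after an intranasal challenge. For each of the 4 groups, material of 4 samples was pooled and hybridised to 1 array, so there are no replicates, no test could be made, and the number of arrays limits the precision of every value. The way the cells were isolated, and how many border macrophages it keeps, is not stated in the labels.

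Levels are log2 intensities and differences are log2 differences between 2 arrays. A gene whose mean over the 4 arrays reached the median gene, 7.18, is called above the floor; 8824 genes were. Of the markers, 9 of 10 were above it, and Lyve1 was below (mean 7.11). The member just inside the floor was Cd163 (mean 7.31). A difference of at least 1.5-fold (0.585 on the log2 scale) was counted. Levels of different genes are not set against each other, since probe sets differ in brightness. The isolate carried the genes that define microglia: 15 of 16 listed microglia markers were found and all 15 were above the floor, among them Cx3cr1 (18.39 in OVA and 18.39 in PBS at P70) and Sall1 (13.62 in OVA and 13.40 in PBS at P70). The highest value of any probe set lay between 19.74 and 19.93 on the 4 arrays, so none of the markers, of which the brightest reached 11.47, was near the upper limit.

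The markers fall into 4 roles. Pf4 and F13a1 encode secreted proteins, platelet factor 4 and the A subunit of coagulation factor XIII, both of which platelets carry too. Mrc1, Cd209a and Clec10a encode C-type lectin receptors that bind sugars on microbes and glycoproteins. Cd163, Stab1 and Lyve1 encode scavenger receptors, for haemoglobin bound to haptoglobin, for modified lipoproteins and matrix proteins, and for hyaluronan. Dab2 encodes an adaptor of clathrin-mediated endocytosis and Cbr2 a carbonyl reductase. Lyve1 is known to mark the border macrophages that carry little class II major histocompatibility complex, and Cd209a and Clec10a are also expressed by dendritic cells.

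The sequences just upstream of the 4 markers that differed most between OVA and PBS at P70 are shown, since a reader may wish to see which short motifs of macrophage transcription factors they hold. They are the 250 bases before the annotated start from RefSeq (GRCm38.p6), 5′ to 3′ on the strand of the gene, and capitals mark a match to a searched motif on either strand.
Pf4, chr5:90772185-90772434, plus strand: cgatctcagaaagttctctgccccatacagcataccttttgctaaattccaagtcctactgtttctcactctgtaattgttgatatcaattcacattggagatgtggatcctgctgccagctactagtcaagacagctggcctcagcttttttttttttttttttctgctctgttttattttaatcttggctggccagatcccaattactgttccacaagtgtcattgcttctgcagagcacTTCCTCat
Dab2, chr15:6299539-6299788, plus strand: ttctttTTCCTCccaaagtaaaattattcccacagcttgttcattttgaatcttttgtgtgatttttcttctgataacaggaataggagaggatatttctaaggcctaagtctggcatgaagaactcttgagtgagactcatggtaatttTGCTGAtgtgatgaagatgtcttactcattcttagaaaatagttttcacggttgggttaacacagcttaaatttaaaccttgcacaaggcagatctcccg
Dab2 at its other annotated start, chr15:6386498-6386747, plus strand: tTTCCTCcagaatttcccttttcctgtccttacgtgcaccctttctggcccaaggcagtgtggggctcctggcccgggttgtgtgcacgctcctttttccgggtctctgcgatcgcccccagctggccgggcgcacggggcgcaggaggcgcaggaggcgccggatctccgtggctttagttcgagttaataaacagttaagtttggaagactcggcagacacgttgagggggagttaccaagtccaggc
Cd209a, chr8:3748985-3749234, minus strand: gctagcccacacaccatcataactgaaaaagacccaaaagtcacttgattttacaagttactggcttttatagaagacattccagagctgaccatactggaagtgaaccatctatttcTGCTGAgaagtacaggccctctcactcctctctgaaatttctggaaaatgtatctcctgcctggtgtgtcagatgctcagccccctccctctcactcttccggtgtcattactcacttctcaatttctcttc
Mrc1, chr2:14229164-14229413, plus strand: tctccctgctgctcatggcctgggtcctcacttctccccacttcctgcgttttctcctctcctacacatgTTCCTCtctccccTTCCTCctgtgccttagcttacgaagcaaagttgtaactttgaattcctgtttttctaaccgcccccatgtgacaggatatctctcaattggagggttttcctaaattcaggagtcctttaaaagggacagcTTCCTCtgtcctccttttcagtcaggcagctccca

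Of the 10 markers, 8 had an entry in the promoter table, with 10 starts in all. The core bound by PU.1, a factor that macrophages need for their development, was searched as GAGGAA on both strands. It was in 7 of the 10 windows, those of Pf4, Mrc1, Cbr2 and Stab1, 1 of the 2 starts of F13a1 and both starts of Dab2, while 23.3% of 32851 windows of the same length hold it. Mrc1 had 3 copies, the nearest ending 30 bases before the start, and Pf4 had 1 ending 3 bases before it. The core recognised by Maf factors, TGCTGA, was in 3 windows, of Cd209a, Dab2 and Stab1, against 16.1% of all windows. The STAT6 motif TTCNNNNGAA and the AP-1 motif TGANTCA, held by 5.85% and 6.75% of all windows, were in none of the 10, and the searched motifs do not overlap each other in the printed windows. A match describes letters, and no binding was measured here.

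At P70, each of the 10 markers was higher on the OVA array than on the PBS array, and 5 of the 9 above the floor were at least 1.5-fold higher, against 4.05% of all genes above the floor. The 5 were Pf4, Dab2, Cd209a, Mrc1 and Clec10a, and none was at least 1.5-fold lower, against a background of 1.22%. The median over the 9 was 0.59, beside 0.09 over the 8824 genes. Of those genes 65% were also above 0, so the shared sign alone is a common property at P70. In bulk RNA, more cells of a type and more RNA per cell cannot be told apart. At least 2-fold differences were seen for 4 of the 9, against a background of 0.487%.

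The secreted protein gene Pf4 had the largest difference of the markers. Its level was 11.47 in OVA and 9.51 in PBS at P70, and 8.45 in OVA and 8.85 in PBS at P30. OVA at P70 thus stood above the other 3 arrays, and OVA at P30 was the lowest of all. The P70 difference was 1.97, or 3.91-fold, which ranked 5th from the top among the 8824 genes. F13a1, by contrast, was at 8.04 in OVA and 7.86 in PBS at P70, and at 7.48 in OVA and 7.53 in PBS at P30. Its P70 difference of 0.18 was exceeded by 35.4% of genes above the floor. The 2 secreted markers therefore differed in size by far, although their 4 arrays had the same order.

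Among the lectin receptors, Cd209a, the mouse relative of DC-SIGN, stood at 11.21 in OVA and 9.91 in PBS at P70. At P30 it stood at 8.38 in OVA and 8.06 in PBS. The P70 difference of 1.30 ranked 15th from the top. Both P70 arrays lay above both P30 arrays, and of the 3 lectin genes only Cd209a had OVA as the higher array at P30 too. The mannose receptor gene Mrc1 was at 9.74 in OVA and 8.68 in PBS at P70, and at 8.31 in OVA and 8.76 in PBS at P30. Its P70 difference was 1.06 (rank 34), and the 2 PBS arrays lay close together with the OVA arrays on either side of them. Clec10a, the receptor for galactose and N-acetylgalactosamine, was at 9.22 in OVA and 8.63 in PBS at P70, and at 8.29 in OVA and 8.51 in PBS at P30. Its P70 difference of 0.59 was 1.51-fold, just past the threshold, and was between 0.48 and 0.58 under each of 3 other scalings and to 0.56 with 32 added before taking logs, so that its count rests on the scaling.

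**Figure D1:**
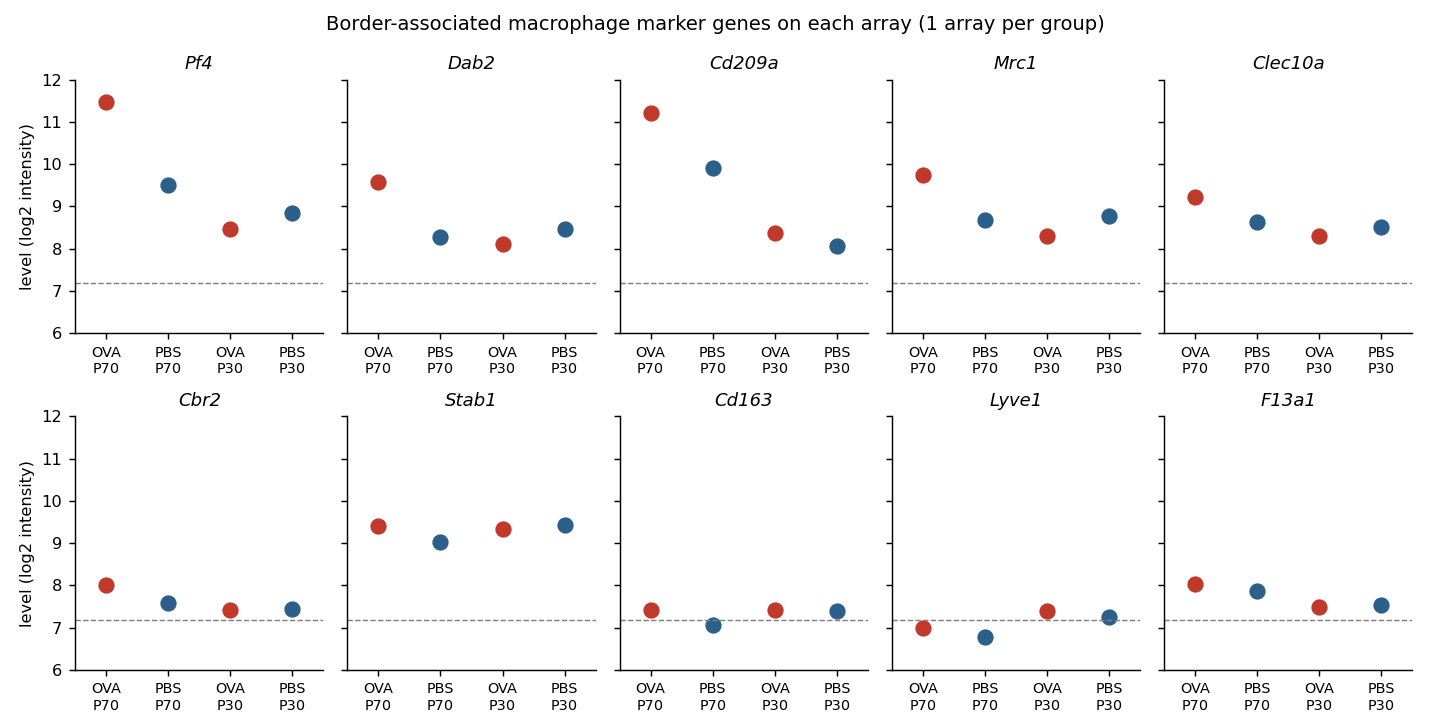
Level (log2 intensity, y axis) of each of the 10 marker genes on the 4 arrays, with OVA in red and PBS in blue and 1 array per group; the dashed line is the floor of 7.18. OVA at P70 stands apart for Pf4 (11.47), Dab2 (9.58), Cd209a (11.21) and Mrc1 (9.74), whereas the 4 arrays lie close together for Stab1 and Cd163.

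The scavenger receptor genes differed far less. Stab1 was at 9.40 in OVA and 9.02 in PBS at P70, and at 9.34 in OVA and 9.43 in PBS at P30. The single low array was PBS at P70, and the other 3 lay close together. Cd163 had the same shape, at 7.40 in OVA and 7.05 in PBS at P70 and at 7.42 in OVA and 7.38 in PBS at P30. The P70 differences were 0.38 for Stab1 and 0.36 for Cd163, and 12.1% and 14.4% of genes had a larger one. Lyve1, under the floor on both P70 arrays (6.99 in OVA and 6.78 in PBS), differed by 0.20, and at P30 it was at 7.40 in OVA and 7.25 in PBS.

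Of the intracellular markers, the endocytic adaptor gene Dab2 was at 9.58 in OVA and 8.27 in PBS at P70, and at 8.11 in OVA and 8.45 in PBS at P30. Its P70 difference of 1.30 ranked 14th from the top, next to that of Cd209a. Cbr2 was at 8.0 in OVA and 7.59 in PBS at P70, a difference of 0.41, and at 7.41 in OVA and 7.45 in PBS at P30. Its OVA array at P70 was the highest of the 4, within 1.5-fold of the PBS array. The 5 markers counted at P70 were above the floor on all 4 arrays, so none of them passed the floor through its high array alone.

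At P30 the picture was another. None of the 9 markers above the floor was at least 1.5-fold higher or lower in OVA, against backgrounds of 0.646% and 0.895%. The median over the 9 was -0.09, beside -0.01 over all genes above the floor, and 7 of the 9 were below 0, as were 53.7% of the genes. The lowest were Mrc1 (-0.46), Pf4 (-0.39) and Dab2 (-0.35), of which 2.16%, 3.52% and 4.75% of genes had lower values. Clec10a was at -0.22 and Cd209a at 0.31, and the other 5 lay between -0.09 and 0.15. The 15 microglia markers had a P30 median of -0.14, with 2 of the 15 above 0. A shift below 0 at P30 was thus not particular to the border macrophage markers.

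The OVA difference at P70 minus that at P30 was 2.36 for Pf4, 1.65 for Dab2, 1.52 for Mrc1, 0.98 for Cd209a and 0.81 for Clec10a. These 5 of 9 were past 1.5-fold, against 7.81% of genes above the floor, and none was past it downward, against 2.27%. Pf4 ranked 6th, Dab2 13th and Mrc1 19th among the 8824 genes. A pattern of OVA below PBS at P30 and above PBS at P70 was seen in 7 of the 9, all but Cd209a and Cd163, and in 35.1% of genes. The markers with the largest positive differences at P70 included the 3 with the most negative differences at P30.

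**Figure D2:**
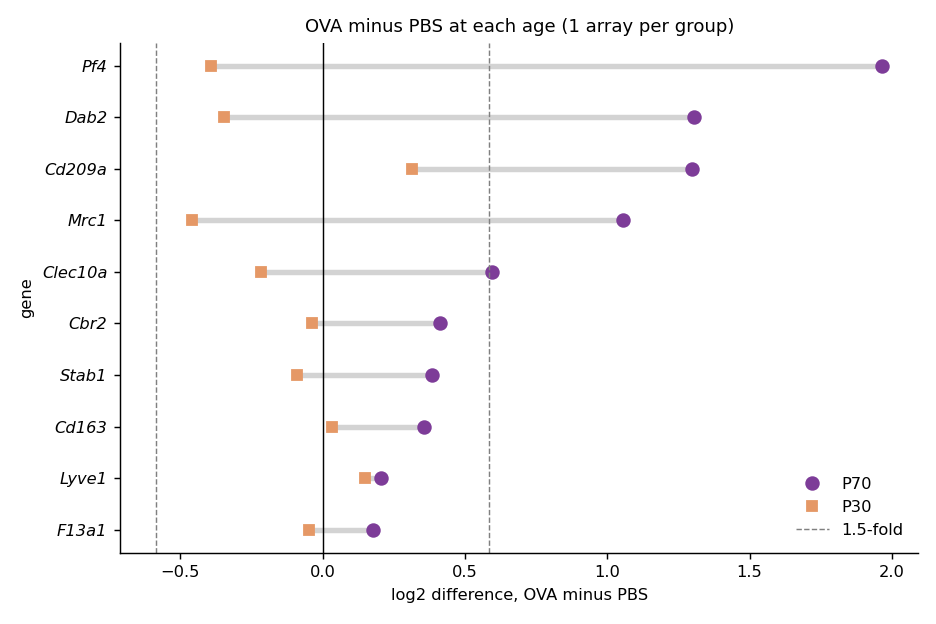
OVA minus PBS difference (log2, x axis) of each marker gene at P70 (purple circles) and at P30 (orange squares), 1 array per group, with 1.5-fold as dashed lines. At P70 all 10 lie above 0 and 5 are past 1.5-fold, from 0.18 for F13a1 to 1.97 for Pf4, while at P30 all lie between -0.46 and 0.31.

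The comparison of P70 with P30 in each treatment uses the same 4 arrays, so its values are not independent of those above. The 2 ages were also further apart for genes in general: 29% of genes above the floor were at least 1.5-fold higher at P70 in PBS and 38.6% in OVA, with medians of 0.25 and 0.38. In PBS, 2 of the 9 markers were past 1.5-fold higher, Cd209a (1.85) and Pf4 (0.66), beside a background of 29% higher and 2.99% lower, and Pf4 was within 1.5-fold under each of 3 other scalings (0.11 to 0.51). The background of higher genes in PBS was 17.4% after centring on the array median and 11.8% after centring along the level. The other 8 markers were at 0.34 or below: F13a1 at 0.34, Cbr2 at 0.14, Clec10a at 0.12, Mrc1 at -0.08, Dab2 at -0.18, Cd163 at -0.33, Stab1 at -0.42 and Lyve1 at -0.47. Relative to the median of genes above the floor, the 3 scavenger receptor genes were thus at -0.59 to -0.72 for P70 minus P30 in PBS. Over all genes with no floor that median was -0.03, nearer to their values, and all 3 lay under it too.

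In OVA, 6 of the 9 were at least 1.5-fold higher at P70 than at P30, against the background of 38.6%, and none was lower, against 4.37%. Pf4 was 3.02 higher, or 8.11-fold, and Cd209a 2.83 higher, with 0.521% and 0.725% of genes having a larger difference. Dab2 (1.47), Mrc1 (1.43), Clec10a (0.93) and Cbr2 (0.59) followed, and F13a1 was at 0.56. Centring on the array median left 4 of the 9 past 1.5-fold higher, against a background that was then 19.8% higher and 14.1% lower, and centring along the level left 4 of the 9 against 13.4% and 11%. Stab1 (0.06), Cd163 (-0.01) and Lyve1 (-0.41) did not share this, and all 3 lay under the median of genes above the floor, 0.38. Over all genes with no floor that median was -0.04, and only Lyve1 lay under it. Cd209a was the marker with the largest age difference in PBS. For Mrc1 (-0.08) and Dab2 (-0.18), by contrast, the P70 and P30 arrays of PBS were near each other as deposited. After centring along the level, the PBS differences of Mrc1 and Dab2 were -0.48 and -0.50.

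**Figure D3:**
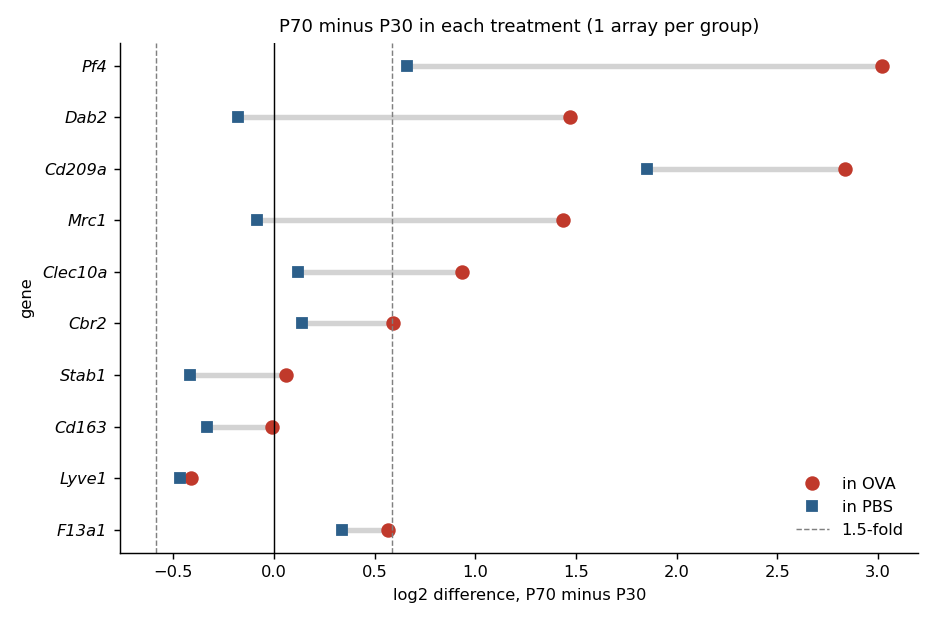
P70 minus P30 difference (log2, x axis) of each marker gene in OVA (red) and in PBS (blue), 1 array per group, with 1.5-fold as dashed lines. Pf4 and Cd209a are far to the right in OVA (3.02 and 2.83), Cd209a is alone past 1 in PBS (1.85), and Stab1, Cd163 and Lyve1 are at or below 0.06 in both.

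Other genes known from border macrophages were taken from a list of 32, of which 30 were found and 19 were above the floor. At P70, 6 of the 19 were at least 1.5-fold higher in OVA and none lower, beside the background of 4.05% and 1.22%, and the median was 0.21. The tetraspan gene Ms4a7 was at 10.77 in OVA and 8.82 in PBS (1.94), and the inhibitory lectin gene Clec12a at 10.17 in OVA and 8.76 in PBS (1.42). The scavenger receptor gene Cd36 was at 8.19 in OVA and 6.88 in PBS (1.32) and the lectin gene Clec4n, which encodes dectin-2, at 7.81 in OVA and 6.81 in PBS (1.00). Of the 6, Cd36, Clec4n and Ccl24 (0.72) passed the floor only through OVA at P70, since the mean of their other 3 arrays was below it (6.94, 7.07 and 7.01), so their counts were partly fixed by the filter and the other 3 of the 6 are free of this. Maf, a transcription factor gene of tissue macrophages, was at 16.27 in OVA and 15.96 in PBS (0.30), and Hpgd, which degrades prostaglandins, at 14.04 in OVA and 14.01 in PBS (0.03). Of the 19, 14 were above 0 at P70, and Cd209d (-0.54) was the lowest. At P30, 3 of the 19 were above 0, and the median was -0.11. The border macrophage markers Siglec1 and Folr2 were below the floor by their means, with 6.52 and 7.42 in OVA and 6.34 and 7.16 in PBS at P70.

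The close relatives of Cd209a did not share its difference. Of the other Cd209 genes above the floor, Cd209c, Cd209f and Cd209g differed by 0.00, -0.03 and 0.00 at P70 and Cd209d by -0.54, against 1.30 for Cd209a. Mgl2, the close relative of Clec10a, was at 9.04 in OVA and 8.51 in PBS at P70 (0.53). Among all 13 listed C-type lectin genes above the floor, 4 were at least 1.5-fold higher at P70, beside a background of 4.05%, and none was lower. They were Clec4b1, Clec12a, Clec7a and Clec4n, the last through the floor only by OVA at P70. The median of the 13 was 0.00. The genes of the Cd209 family are similar in sequence, so how cleanly their probe sets tell them apart is uncertain.

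Several of the markers are expressed by other cells, so lists of those cells are given beside them. Pf4 and F13a1 are also platelet genes. Of 11 platelet and megakaryocyte genes found, 5 were above the floor (Gp9, Treml1, Itgb3, Gp6 and Itga2b), with a median of -0.08 at P70 and none past 1.5-fold. Ppbp, the neighbouring chemokine gene of platelets, was below the floor on every array (6.39 in OVA and 6.31 in PBS at P70). Of 15 dendritic cell genes found, Flt3, Zbtb46, Xcr1 and Clec9a were below the floor on every array. These genes need not mark the dendritic cells that carry Cd209a and Clec10a. Of the 8 dendritic genes above the floor, 2 were at least 1.5-fold higher at P70, Napsa (0.78) and Itgax (0.69), beside a background of 4.05%. Irf8 was at 0.45, 6 of the 8 were above 0, and the median was 0.11. The part of dendritic cells in the marker differences was not tested. Lyve1 is also a gene of lymphatic endothelium. Of 9 other lymphatic genes found, only the transcription factor gene Prox1 was above the floor (7.62 in OVA and 7.78 in PBS at P70), and Flt4, Reln, Mmrn1 and Sema3d were below it on every array.

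Monocyte markers moved with age and in part with OVA. The mean level of the 9 above the floor, of 12 found, was 9.70 in OVA and 9.30 in PBS at P70, and 7.76 in OVA and 7.78 in PBS at P30. At P70, 2 of the 9 were at least 1.5-fold higher in OVA, S100a4 (1.16) and Treml4 (0.97), beside a background of 4.05%. Treml4 was above the floor on the OVA array at P70 alone. Ccr2 was at 0.48 and Ly6c2 at 0.05, and the median was 0.30. Cd209a had its largest values on the same 2 P70 arrays, as did Pf4, F13a1, Clec10a and Cbr2. The choroid plexus gene Ttr was at 12.02 in OVA and 7.90 in PBS at P70, and at 9.32 in OVA and 7.45 in PBS at P30. Its difference was 17.3-fold at P70, rank 1 from the top among the 8824 genes, and 3.65-fold at P30. Of 11 genes of that epithelium found, the other one above the floor was Kcne2, at 7.89 in OVA and 8.26 in PBS at P70 (-0.37) and at 8.67 in OVA and 8.58 in PBS at P30. Folr1, Kl, Clic6, Aqp1, Kcnj13 and Otx2 were below the floor on every array. Their P70 differences were 0.37, 0.37, -0.18, 0.29, 0.38 and -0.01, in that order. Over all 11 found the P70 median was 0.17, beside 0.01 over all genes with no floor. The 12 neutrophil genes above the floor averaged 12.70 in OVA and 12.91 in PBS at P70, and 9.39 in OVA and 10.29 in PBS at P30. At P30, 7 of the 12 were at least 1.5-fold lower in OVA, beside a background of 0.895%, with a median of -1.10. At P70, 2 of the 12 were lower, beside 1.22%, and none was higher at either age. The microglia list had a median of 0.08 at P70, with none of its 15 genes at least 1.5-fold higher or lower, or 2 higher after quantile normalization. Cx3cr1 and Selplg, with high levels of 18.39 and 17.88 in OVA at P70, had the same differences, -0.14 at P30 and 0.05 for P70 minus P30 in PBS. Whether an upper limit of the signal held such differences down was not tested. The part of monocytes, of neutrophils and of choroid plexus carry-over in the marker differences was not tested.

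**Figure D4:**
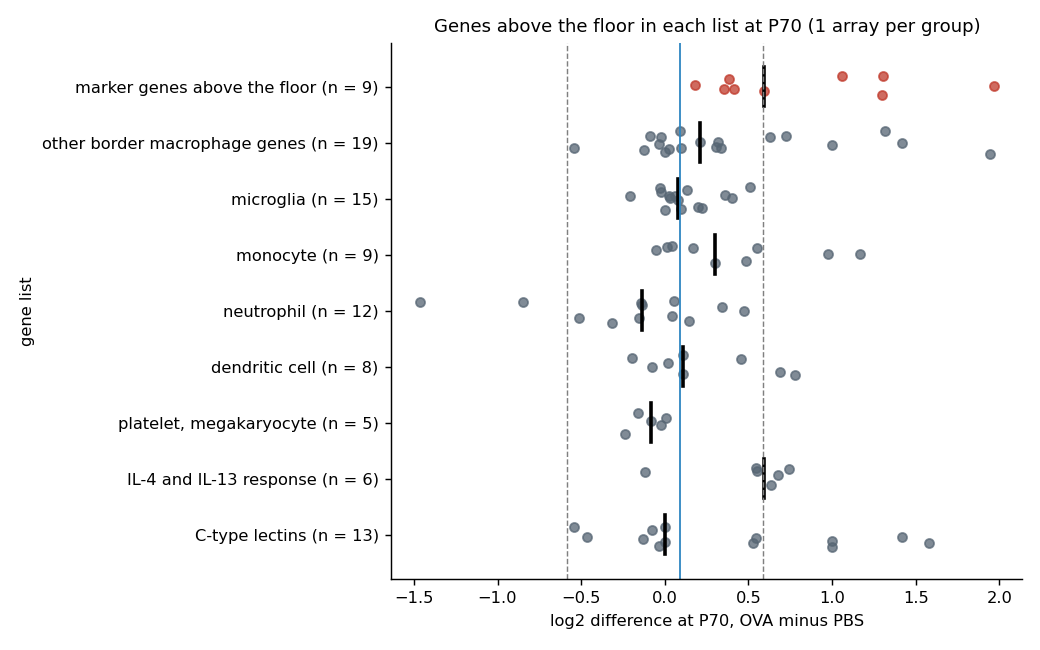
OVA minus PBS difference at P70 (log2, x axis) of each gene above the floor, by list (y axis), with the list's median as a black bar, the median of all genes above the floor (0.09) as a blue line and 1.5-fold as dashed lines. The border macrophage markers (red) have a median of 0.59 and reach 1.97, while the microglia list lies around the blue line with a median of 0.08.

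Genes of the response to interleukin 4 and interleukin 13, cytokines of allergy that are known to raise Mrc1 and Clec10a in macrophages, were taken from a list of 15, of which 6 were above the floor. At P70, Il13ra1 (0.74), Stat6 (0.68) and Ccl17 (0.64) were at least 1.5-fold higher in OVA, beside a background of 4.05%, and Il4ra was at 0.55. After centring on the array median or along the level, 1 of the 6 was past 1.5-fold, beside backgrounds that were then 2.31% and 2.15%. Arg1, a gene these cytokines induce in mouse macrophages, was below the floor on every array, at 6.77 in OVA and 6.58 in PBS at P70. Retnla, of the same list, was above the floor by its mean, at 8.58 in OVA and 8.04 in PBS at P70 (0.54). The median over the 6 was 0.60, and 5 of the 6 were above 0. Among 12 genes of endocytic and scavenger receptors above the floor, of 24, 2 were at least 1.5-fold higher at P70 and none was lower. The 2 were the clathrin adaptor subunit Ap2a2 (0.63) and Cd36 (1.32), beside the same background of 4.05%. Cd36, as above, passed the floor only through OVA at P70. Of the 11 genes of haemoglobin and iron scavenging above the floor, of 14, 2 were past 1.5-fold higher, beside the background of 4.05%. The 2 were Cd36 and Ftl1 (0.63), a ferritin gene with near-identical copies and so uncertain. The median of the 11 was 0.09.

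As a measure of likeness, the 4 values of each gene, centred on their own mean, were compared with the mean profile of the 9 markers. That profile was 0.78 for OVA and -0.06 for PBS at P70, and -0.43 for OVA and -0.29 for PBS at P30. The nearest genes over the 4 arrays were Larp4, Syap1, Rp9, Lamp1, Cdkn1a, Elp2, Cdc27 and Ubac2, at Euclidean distances of 0.062 to 0.10. Each of the 9 markers is part of the mean profile and the other genes are not, so a marker's distance is partly fixed in advance. Among the markers Clec10a (0.27) and Mrc1 (0.28) came closest to the profile, and 1.16% and 1.35% of genes above the floor were nearer than they were. Pf4 (1.39) and Cd209a (1.68) had larger swings and were far from it, with 92.7% and 96.7% of genes nearer. OVA at P70 was the highest of the 4 arrays for 7 of the 9 markers and for 54.8% of genes above the floor, so that order is common on these arrays.

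The balance of higher and lower genes at P70 depended on the scaling between the arrays, which bears on the markers with small differences. As deposited, 357 genes above the floor were at least 1.5-fold higher and 108 lower in OVA at P70, or 76.8% higher. After centring each array on its median it was 204 higher and 182 lower, after centring along the level 190 and 174, and after quantile normalization over all probe sets 459 and 63. Keeping predicted genes, small RNAs, receptors and segments changed the genes counted and their floor, not the scaling. Of the 15071 genes then above the floor, 630 were higher and 995 lower. Pf4 stayed between 1.81 and 2.10, Dab2 between 1.20 and 1.30, Cd209a between 1.15 and 1.42 and Mrc1 between 0.93 and 1.06 under these 3 scalings and as deposited, and all 10 markers stayed above 0.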

How the data were processed

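The authors deposited 1 intensity per probe set and array on a linear scale, for 65956 probe sets. RMA and Affymetrix Expression Console 1.4.1 appear in the submitters' processing notes, with no role for either. Neither the scaling between arrays nor the genome build is given in the sources used here. Scanner files were not used here.

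Log2 values of the deposited intensities were used with no further normalization (Python 3.11.15, numpy 2.4.6, pandas 2.3.3). In the platform annotation 30604 probe sets carried 1 symbol, 2146 several and 33206 none here. For 827 of them the symbol was brought up to date by Entrez ID from RefSeq (GRCm38.p6). Leaving out 12722 probe sets of predicted genes, small RNAs, vomeronasal and olfactory receptors and segments of antigen receptors gave 17647 genes. A gene with several probe sets (193 genes) was represented by the brightest. The floor was the median of the 4-array means. With 1 array per group no test was made. The counting was tested on simulated data.

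The 10 markers, the other gene lists and the alternatives were chosen with earlier results of these data known. Named genes were all 10 markers. Of each other list they were up to 4 genes with the largest absolute P70 difference, up to 2 with the highest level, and genes named as below the floor; the 8 genes nearest the mean profile were named too. The Cd209 relatives, Mgl2, Ccl24 and Retnla are named outside that rule, after their values were seen. Alternatives covered the scaling (lowess by statsmodels 0.14.6), the floor, the probe sets, the constant 32, the fold and leaving out each marker.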

Additional observations from a re-analysis of the deposited data

Results flagged for a closer look

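The OVA minus PBS difference had opposite signs at P70 and P30 for 7 markers, below 0 at P30 and above 0 at P70. With 1 array per group and age, the difference between the ages was not tested. It was 2.36 for Pf4 (1.97 at P70 and -0.39 at P30), 1.65 for Dab2 (1.30 and -0.35), 1.52 for Mrc1 (1.06 and -0.46) and 0.81 for Clec10a (0.59 and -0.22). It was 0.48 for Stab1, 0.45 for Cbr2 and 0.23 for F13a1, whose P30 differences lay between -0.09 and -0.04. Of all genes above the floor, 35.1% had this pair of signs.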

How the results depend on the processing

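No paired analysis was possible because each group has 1 array. A change was judged against the SD of the differences across genes above the floor, the sole spread at hand, and counts against 1.5 times. Of the marker counts and medians under the alternatives, 136 kept within these limits and the 9 others are given here. For P70 minus P30 in PBS, the count of markers higher, 2 as deposited, was 1 after centring on the median, quantile normalization and lowess centring and at 2-fold, and 1 to 2 when each marker was left out in turn (1 without Pf4 or without Cd209a). The backgrounds of higher genes were then 17.4%, 27.6%, 11.8% and, at 2-fold, 13.5%. Markers lower in P70 minus P30 in PBS, 0 as deposited, were 2 after centring on the median and 1 after lowess centring, beside 8.41% and 8.73% of genes. For P70 minus P30 in OVA, 1 was lower after lowess centring, beside 11%. With a floor at the 60th percentile, the P70 median of OVA minus PBS was 1.06 over 7 markers. At that floor 3 of 13 other border macrophage genes were higher, beside a background of 4.6%. At 2-fold, 3 markers were past the threshold in the difference between the ages, beside 1.34% of genes. At P70 the count of markers higher in OVA lay between 4 and 5 under every alternative run, the lower value wherever Clec10a lost its call, at 2-fold, or when a counted marker was left out. Of 250 values of single markers under other settings, 230 kept within the limits and no called value changed its sign. Dim markers (F13a1, Cbr2, Cd163 and Lyve1) lie near the floor, which limits what their differences can show.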
